A study of Streblospio benedicti with 24 samples.

Results

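The genes described here are 98 coding genes of the marine annelid Streblospio benedicti. Their mRNA was more abundant in every oocyte library of the developmental morph LL than in any oocyte library of the morph PP. They were chosen on CPM, the reads on a gene per 1000000 reads on genes of that library. A gene was kept if its lowest CPM over 7 LL libraries was above its highest CPM over 7 PP libraries and its mean LL level was at least 1 CPM. Genes with the tag _nc_ in the identifier were left out, and all others are called coding here. Sbene_G10227 was also left out beforehand. Of 26216 genes counted, 20221 were coding and 9096 of these reached 1 CPM in LL. In 1.09% of the 9096, or 99 genes with Sbene_G10227 included, every LL library was above every PP library. The PP and LL levels therefore chose the genes, and every difference between PP and LL below is a description of that choice. The levels in 10 libraries from F1 females were not used in the choice and are the measurement of interest.

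The mRNA came from unfertilized oocytes, and 1 sample was the whole clutch of 1 female reared in isolation. PP females were planktotrophic, of Bayonne, NJ descent, and make small eggs that become feeding larvae. LL females were lecithotrophic, of Long Beach, CA descent, and make large, yolk-rich eggs. PL and LP were F1 females from reciprocal laboratory crosses of these morphs, named with the maternal allele first, and contributed 5 libraries each. Morph and population of origin go together in PP and LL and cannot be told apart. All F1 libraries, PP replicate 7 and LL replicates 6 and 7 were labelled as having 2 technical replicates, and F1 samples were sequenced separately from the parents. Library totals ranged from 7489256 to 43609048 counts, with a median of 19499123. No 2 replicates of a group agreed within sampling noise. Because a clutch was read as a pool, fewer eggs carrying a transcript and less of it in each egg cannot be told apart. Defining oocyte markers are not named in the sources used here, so the tissue label was not checked against any.

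Oocytes are loaded with maternal mRNA and protein before fertilization, and these stocks run the first cell divisions until the embryo's own genome is activated. An F1 female carries 1 allele set of each morph in every oocyte precursor, so her eggs show how a transcript that separates the morphs is loaded from a mixed genotype. Reciprocal crosses give the same nuclear alleles from opposite parents, so that PL and LP differ in which morph the mother and which the father came from.

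The study's gene lists, which were drawn up on these samples, annotated 5 of the 98 genes, and 93 are given by identifier only. Sbene_G16819 is annotated as phosphoenolpyruvate carboxykinase [GTP], which makes phosphoenolpyruvate from oxaloacetate at the entry to gluconeogenesis. Sbene_G01840 is annotated as solute carrier family 13 member 2, which in mammals is a sodium-coupled carrier of dicarboxylates and citrate. Sbene_G20530 is annotated as proliferating cell nuclear antigen (PCNA), the sliding clamp of DNA polymerases. Sbene_G22968 is annotated as a zinc finger protein, and Sbene_G25841 as a Transposon Tf2-9 polyprotein, named after a yeast retrotransposon. Transposon and zinc finger genes often have close copies in a genome, and how reads that match several copies were shared was not given in the sources used here. None of the 11 genes that the study names for forkhead, Krüppel-like, homeobox, paired-box, frizzled and Notch functions met the rule, and 0 of them separated the morphs completely in the direction of LL. The same passage of the study names Sbene_G10227 as a polycomb protein. That gene did separate the morphs in this direction but was left out beforehand.

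The 98 genes covered a wide range of levels. Their mean LL level ran from 1.01 to 752 CPM with a median of 13.3 CPM, and 17 genes were at 100 CPM or more. The ratio of the mean LL to the mean PP level had a median of 6.06 and ran from 1.37 to 205. The largest ratio, that of Sbene_G23835, rested on 3 PP counts, and the ratio of its pooled counts was 170 with a 95% exact Poisson interval of 58.1 to 824 for the counting error in PP alone. The ratio was at least 10 in 40 genes, between 2 and 10 in 47, and under 2 in 11. In 37 genes at least 1 PP library had no count. The rule itself excludes an LL library without a count. PP replicate 2, in which 33.9% of reads aligned, had no count for 26 of the 98 genes, beside 7 to 20 in the other PP libraries. The separation itself was often narrow, since the lowest LL value was less than 1.1 times the highest PP value in 24 genes and at least 5 times in only 10. At the edge of the rule, Sbene_G06634, Sbene_G03069 and Sbene_G09737 had a ratio of lowest LL to highest PP of 1.01, while Sbene_G10416 and Sbene_G21315 (both 0.996) and Sbene_G18349 (0.995) fell just outside. An edgeR test of PP against LL tested 87 of the 98 genes and called 68 of them, beside 1.68% of all genes tested that were called higher in LL. That contrast is the one the rule used, and nothing was read from this count.

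In the 8 most abundant genes the ratio of the mean LL to the mean PP level ran from 1.60 to 15.2 with a median of 2.82. Sbene_G00911 had the highest mean LL level, with PP libraries at 271, 472 and 580 CPM (lowest, median and highest) and LL libraries at 626, 670 and 944 CPM. Its PL libraries lay at 601, 487, 711, 536 and 539 CPM and its LP libraries at 450, 471, 595, 802 and 718 CPM. Both crosses thus spread from the PP range into the LL range, with 3 F1 libraries at or above the lowest LL value and 5 at or below the highest PP value. Sbene_G17407 stood apart among the abundant genes, with PP libraries at 7.77, 18.6 and 58.1 CPM and LL libraries at 169, 301 and 848 CPM. In PL it was at 586, 526, 234, 155 and 357 CPM, and in LP at 156, 45.7, 66.6, 212 and 225 CPM. Sbene_G21394 had a similar contrast between morphs, 12.3, 21.2 and 38.4 CPM in PP against 182, 289 and 557 CPM in LL. All 10 F1 libraries of Sbene_G21394 were above PP, with 70.4 to 225 CPM in PL and 100 to 345 CPM in LP. Sbene_G21083 was at 80.6 to 246 CPM in PP and 264 to 442 CPM in LL, and 8 of its F1 libraries reached the LL range, with 262 to 342 CPM in PL and 227 to 443 CPM in LP. Sbene_G11784, at 58.1 to 173 CPM in PP and 243 to 382 CPM in LL, had its PL libraries more scattered than its LP libraries, with 130 to 260 CPM in PL and 204 to 233 CPM in LP. All LP libraries of this gene lay between the morphs, whereas 3 PL libraries were in the PP range and 2 in the LL range.

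Across the 98 genes, the F1 libraries had intermediate levels. F1 samples were sequenced separately from the parents, and the authors' removal of unwanted variation was not repeated. F1 origin and sequencing run therefore cannot be told apart when F1 libraries are placed between the parents. The position of a cross was computed for each gene as the difference between the F1 and the PP mean of log2(CPM + 0.25) divided by the difference between the LL and the PP mean, so that 0 is the PP mean and 1 the LL mean. The median position was 0.57 for PL (quartiles 0.34 and 0.73) and 0.55 for LP (quartiles 0.36 and 0.69). The closeness of both medians depended on the scaling, since they were 0.64 and 0.53 with TMM-scaled CPM and 0.61 and 0.53 with DESeq2's median of ratios. The position lay between 0 and 1 in 88 genes for each cross and in 82 genes for both. It was below 0 in 5 genes for PL and 3 for LP, and above 1 in 5 for PL and 7 for LP. The PL mean was above the PP mean in 93 of 98 genes and the LP mean in 95, beside 48.1% and 53.9% of all 9096 coding genes at that level. These shares are descriptions without a test, because the choice fixed the PP mean low and the LL mean high.

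**Figure D1:**
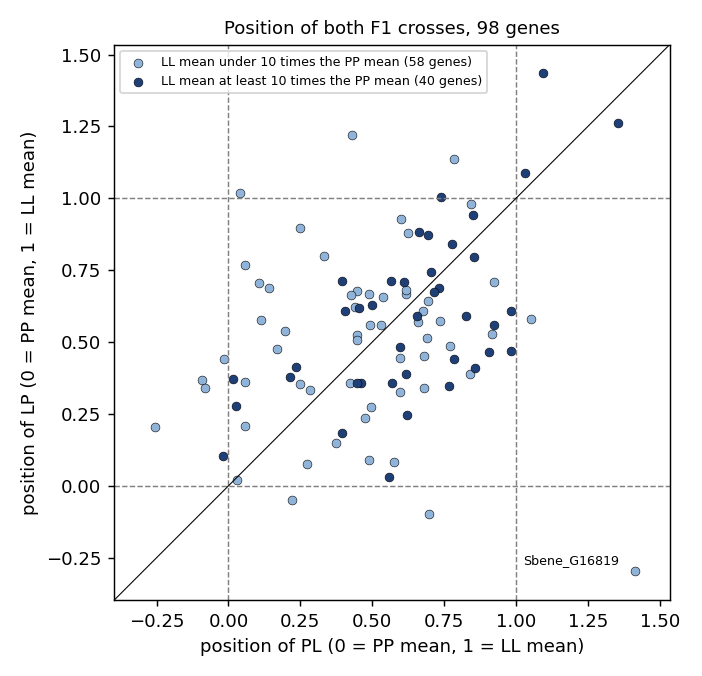
Each point is 1 of the 98 genes, with the position of PL on the horizontal axis and of LP on the vertical axis, both from 0 at the PP mean to 1 at the LL mean on the log2(CPM + 0.25) scale. Most points lie inside the dashed square in which both crosses are intermediate (82 genes), on either side of the diagonal of equal positions, and Sbene_G16819 lies far off it at the lower right.

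The ratio of LL to PP, which the rule used, also sets the denominator of the position, so the positions by ratio are given as a description. Among the 40 genes with a ratio of at least 10, the median position was 0.66 for PL and 0.59 for LP. Among the 11 genes with a ratio under 2 it was 0.14 for PL and 0.44 for LP. In these genes a small shift of a whole library group moves the position strongly, and over the 9096 coding genes the median log2 difference from LL was -0.15 in PL and -0.05 in LP. By level, the medians were 0.53 (PL) and 0.57 (LP) in the 58 genes with a mean LL level of 10 CPM or more and 0.60 and 0.52 in the 40 below. The 63 coding genes that separated the morphs in the opposite way, with every PP library above every LL library and a mean PP level of at least 1 CPM, had median positions of 0.69 for PL and 0.47 for LP on the same scale.

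Single F1 libraries were intermediate for the genes as a whole. The median position over the 98 genes was 0.67, 0.76, 0.52, 0.42 and 0.50 in PL replicates 1 to 5 and 0.58, 0.43, 0.62, 0.58 and 0.61 in LP replicates 1 to 5. All 10 lay between the highest PP library, 0.16 in PP replicate 7, and the lowest LL library, 0.85. The means were 0.57 ± 0.14 (SD, n = 5) for PL and 0.56 ± 0.08 (SD, n = 5) for LP, and the ranges of both crosses overlapped. The sample IDs of F1 libraries carry a letter whose meaning is not given in the sources used here. The 3 PL libraries that share the letter J had the lowest PL positions (0.42 to 0.52), below those with the letters H (0.67) and I (0.76), while the 3 LP libraries with the letter A spanned 0.43 to 0.62. The same 3 PL libraries had the highest positions for the opposite list, 0.68, 0.85 and 0.80, against 0.42 and 0.33 in PL replicates 1 and 2. The part of the letter in these positions was not tested.

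**Figure D2:**
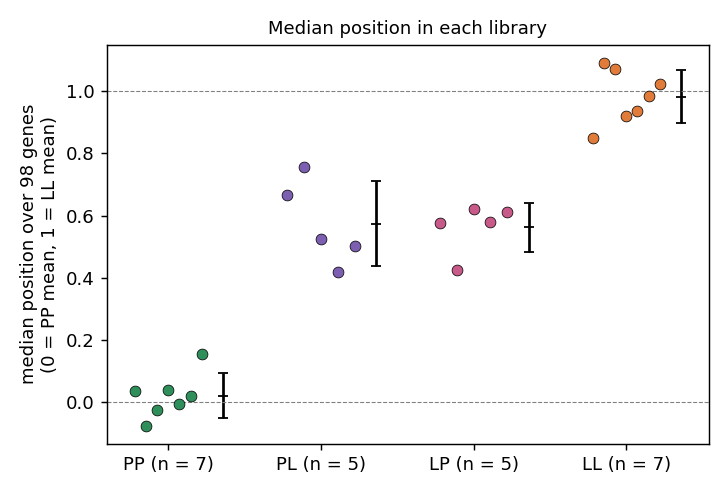
Each point is 1 library, placed at the median position of the 98 genes between the PP mean (0) and the LL mean (1), with replicates in order from left to right and the mean ± SD of the group beside them. PL (0.42 to 0.76) and LP (0.43 to 0.62) libraries overlap each other and lie between the morphs, whose distance apart was fixed by the choice of genes.

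Intermediate averages came from genes and libraries at very different places. Over the 980 combinations of a gene and an F1 library, 42.9% were at or above the lowest LL value of the gene, 38.4% were at or below its highest PP value and 18.8% lay between the morphs. For most genes the space between the morphs was narrow, with a median ratio of lowest LL to highest PP of 1.27. The share at or above the lowest LL value ran from 33.7% in PL replicate 4 to 57.1% in PL replicate 2. In 82 genes, F1 libraries reached both the LL range and the PP range, and in 54 genes all 3 ranges were occupied. The median spread within a cross (SD of log2(CPM + 0.25)) was 0.63 in PL and 0.77 in LP for these genes, beside 0.59 and 0.64 for the 9096 coding genes at 1 CPM or more in LL.

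**Figure D3:**
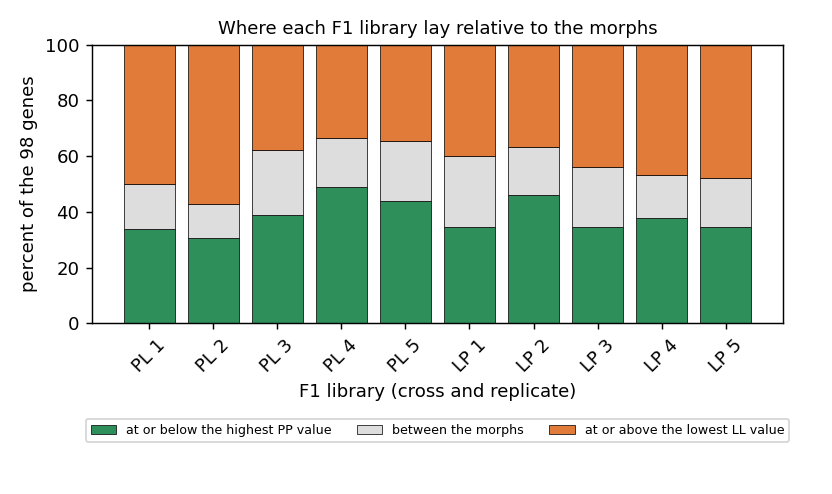
Stacked bars give, for each F1 library, the percentage of the 98 genes at or below the highest PP value, between the morphs, and at or above the lowest LL value. All 10 libraries hold genes of every kind, and the top segment is largest in PL replicate 2 (57.1%) and smallest in PL replicate 4 (33.7%).

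The 10 genes whose lowest LL value was at least 5 times the highest PP value show where F1 eggs lay when the morphs were far apart. Of their 100 combinations with F1 libraries, 49 were at or above the lowest LL value, 39 between the morphs and 12 at or below the highest PP value. Sbene_G25841, the polyprotein gene, had no count in 4 PP libraries and at most 0.217 CPM in the others, and its LL libraries were at 2.42, 9.01 and 28.0 CPM (lowest, median and highest). In PL it was at 4.57, 16.6, 11.9, 12.4 and 7.16 CPM, and in LP at 6.67, 6.73, 12.05, 20.5 and 18.9 CPM. All 10 F1 libraries of this transposon gene were therefore within the LL range, with positions of 1.03 in PL and 1.09 in LP. Sbene_G23402 had PP libraries at 1.73 to 6.31 CPM and LL libraries at 46.0 to 264 CPM. Its F1 libraries ran from 50.2 to 90.8 CPM in PL and from 36.9 to 83.2 CPM in LP, so that 9 of 10 reached the LL range and 0 the PP range. Sbene_G04942, with 0.838, 3.36 and 4.48 CPM in PP and 28.5, 66.2 and 767 CPM in LL, was at 107, 44.7, 146, 2.37 and 55.3 CPM in PL and 132, 45.4, 149, 309 and 47.3 CPM in LP. PL replicate 4 was thus in the PP range while the other 9 F1 libraries were in the LL range.

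PCNA was split among eggs of F1 females. Sbene_G20530 was at 0.0229, 0.0762 and 0.617 CPM in PP (lowest, median and highest) and at 9.005, 13.1 and 21.8 CPM in LL. The PL libraries had 12.1, 0.134, 4.41, 7.45 and 0.124 CPM, and the LP libraries had 0.794, 12, 9.89, 0.0863 and 13.1 CPM. PL replicates 2 and 5 and LP replicate 4 were in the PP range, on 1, 4 and 2 counts, and LP replicate 1 was just above it on 10 counts. The 6 other F1 libraries had 85 to 211 counts. Low and high libraries occurred in both crosses and among libraries that share a letter, with 0.124 and 7.45 CPM in letter J and 0.794 and 12 CPM in letter A. PCNA was not called between the crosses (log2 fold change of LP over PL 0.40, SE 0.96, adjusted p = 0.936, edgeR).

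Some other genes with a wide gap had most F1 libraries below the LL range. The zinc finger gene Sbene_G22968 was at 0, 0.215 and 0.838 CPM in PP and at 5.78, 13.02 and 22.1 CPM in LL. Its PL libraries were at 6.85, 2.00, 4.58, 3.68 and 3.63 CPM and its LP libraries at 5.24, 3.93, 2.25, 2.46 and 2.37 CPM. In this gene 9 of 10 F1 libraries lay between the morphs and 1, PL replicate 1, entered the LL range. Sbene_G16664, at 0 to 0.257 CPM in PP and 1.495 to 8.57 CPM in LL, had 7 F1 libraries between the morphs and 3 in the LL range. Those 3 were LP libraries, with 0.434 to 1.09 CPM in PL and 0.800 to 5.10 CPM in LP. This gene was not called between the crosses (log2 fold change of LP over PL 1.49, SE 0.68, adjusted p = 0.659, edgeR). Sbene_G03432 was more like PCNA, with F1 libraries from 0 to 1.97 CPM in PL and from 0 to 5.16 CPM in LP beside 1.79 to 5.48 CPM in LL and at most 0.134 CPM in PP.

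The remaining genes with a wide gap, none of them annotated, were rare transcripts. Sbene_G23835 had no count in 5 PP libraries and at most 0.0722 CPM in the others, and was at 0.714, 2.94 and 4.76 CPM in LL. It was at 1.97, 1.87, 1.61, 1.31 and 1.61 CPM in PL and at 0.476, 2.20, 0.0937, 0.691 and 0 CPM in LP. All PL libraries were thus in the LL range, while LP libraries ran from no count to 2.20 CPM (log2 fold change of LP over PL -1.44, SE 0.87, adjusted p = 0.724, edgeR). Sbene_G13559, at 1.31 to 2.51 CPM in LL and at most 0.139 CPM in PP, had 7 F1 libraries between the morphs and a single one, at 5.16 CPM in LP replicate 1, at or above the lowest LL value. Sbene_G14618, at 2.76 to 11.4 CPM in LL, was at 1.55 to 4.91 CPM in PL and 0 to 2.02 CPM in LP. Its identifier is 2 numbers from that of Sbene_G14616, which was at 1.39 to 6.03 CPM in LL, 0 to 5.71 CPM in PL and 0 to 3.23 CPM in LP. Sbene_G25696, with a narrower gap but one of the largest ratios (86.5), was at 0.755 to 14.3 CPM in LL, 0.744 to 4.64 CPM in PL and 0 to 5.03 CPM in LP, and 7 of its F1 libraries were in the LL range.

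**Figure D4:**
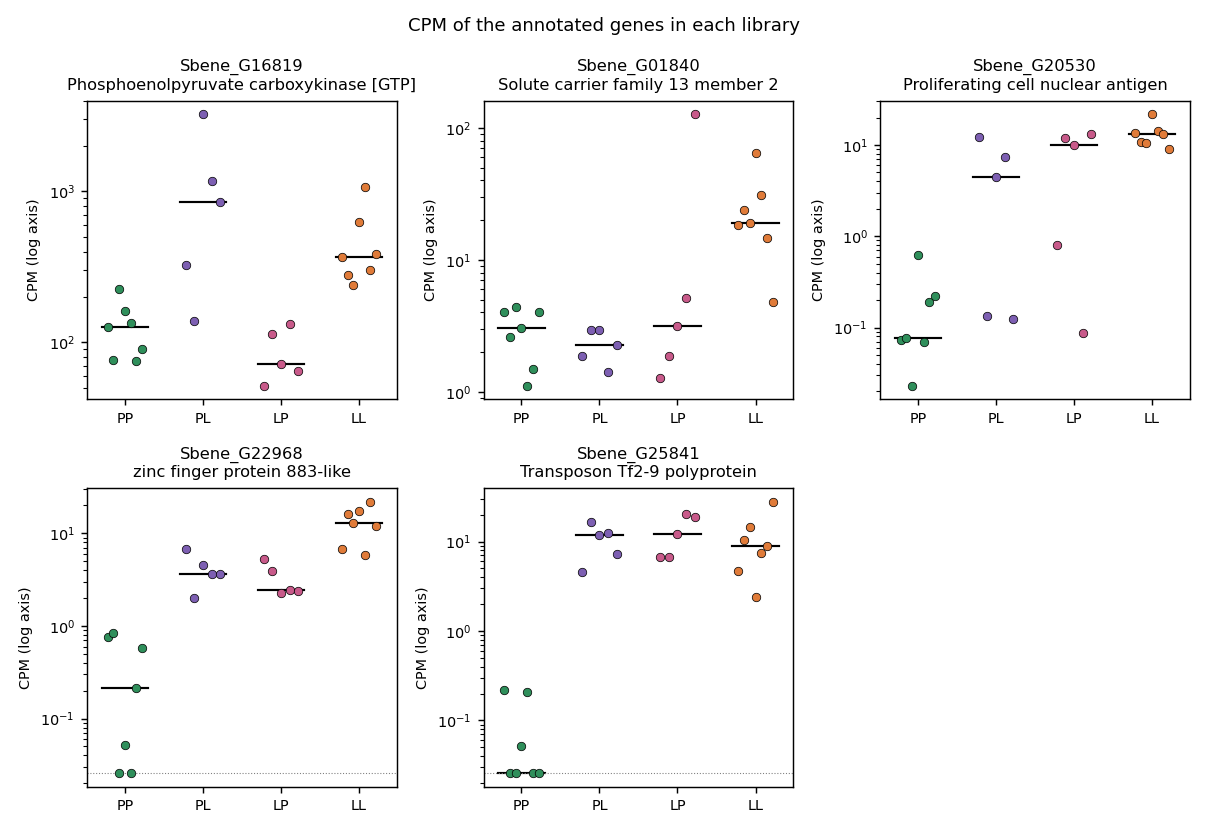
CPM of the 5 annotated genes in each library, on a log axis that differs between panels, with 1 point per library in replicate order and a bar at the group median. Libraries without a count are drawn on the dotted line at the foot of a panel. PL libraries of Sbene_G16819 (139 to 3255 CPM) sit above all LP libraries (51.5 to 133 CPM), Sbene_G20530 splits within both crosses, and Sbene_G25841 is at LL levels in all F1 libraries.

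At the ends of the range, 4 genes had all 10 F1 libraries at or above the lowest LL value and 1 gene had all 10 at or below the highest PP value. Besides the polyprotein gene, the former were Sbene_G00796, Sbene_G07240 and Sbene_G15238. Sbene_G00796 had the highest median position of F1 libraries, 1.37, with 7.21 to 10.7 CPM in PL and 2.53 to 15.5 CPM in LP beside 1.79, 3.40 and 14.3 CPM in LL. Most of its F1 libraries were above the LL median. Sbene_G07240 was a rare transcript, with 0.724 to 1.87 CPM in PL, 1.04 to 3.65 CPM in LP and 0.155, 0.921 and 4.59 CPM in LL. Sbene_G05326 and Sbene_G24395, the other genes with the highest median positions (1.03 and 0.97), each had 8 F1 libraries in the LL range and 2 in the PP range. Sbene_G20104, singled out after its values were seen as Sbene_G15238 was, had all F1 libraries in the PP range, 22.3 to 37.2 CPM in PL and 18.1 to 32.1 CPM in LP against 9.45 to 37.9 CPM in PP and 40.1 to 54.5 CPM in LL. Its contrast between the morphs was small, with a ratio of the means of 1.76. In 4 genes no F1 library reached the LL range, Sbene_G20104, Sbene_G10278, Sbene_G12385 and Sbene_G24999. Sbene_G10278, among the most abundant genes, was at 338 to 693 CPM in LL but at 162 to 330 CPM in PL and 173 to 331 CPM in LP, and 7 of its F1 libraries were within the PP range of 60.5 to 260 CPM.

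Some genes were at PP levels in most F1 libraries. Among the genes with the lowest median positions, Sbene_G12001 (-0.16) had no count in 4 PL libraries and 2 LP libraries, while its 4 other F1 libraries, at 0.267 to 0.937 CPM, were above the lowest LL value of 0.204 CPM. Sbene_G16395 (-0.15) was at 45.6 to 96.3 CPM in PL and 47.1 to 77.5 CPM in LP beside 32.1 to 74.7 CPM in PP, with 8 F1 libraries in the PP range. Sbene_G18579 and Sbene_G11004 followed with median positions of -0.02 and 0.01, and had 9 and 8 F1 libraries in the PP range. The solute carrier gene Sbene_G01840 had PP libraries at 1.11, 3.03 and 4.43 CPM, LL libraries at 4.83, 19.1 and 64.2 CPM and PL libraries at 1.87, 2.94, 2.96, 1.40 and 2.26 CPM. In LP it was at 1.27, 1.87, 3.14, 5.14 and 127 CPM. All PL libraries and 3 LP libraries were in the PP range, and LP replicate 5 was above every LL library.

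The comparison of PL with LP addressed whether the direction of the cross changed these transcripts. The rule did not use the PL and LP levels, but the fit of 24 libraries takes much of its estimate of the spread from the PP and LL libraries that it did use. The median SD of log2(CPM + 0.25) in PP was 0.57 for the 98 genes beside 0.73 for the 9096 coding genes, so p-values from this fit are not free of the choice. Phosphoenolpyruvate carboxykinase was the one gene of the 98 that was called, higher in PL, whereas 97 were not called. In the edgeR fit of 24 libraries, a call needed a fold change over 1.5 and an adjusted p under 0.1. Of 10782 genes tested, 2 were called (0.0185%), both higher in PL. All 98 genes were tested, and their median log2 fold change of LP over PL was -0.02, beside -0.05 for all genes. Of the 98 genes, 12 had an unadjusted p under 0.05, beside 7.38% of all genes tested. The position of LP was above that of PL in 52 genes and below it in 46.

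Sbene_G16819 was at 75.7, 127 and 226 CPM in PP (lowest, median and highest) and at 239, 367 and 1071 CPM in LL. The PL libraries had 327, 139, 3255, 1174 and 848 CPM, and the LP libraries had 51.5, 114, 72.2, 133 and 65.0 CPM. Every PL library was above every LP library, PL replicates 3 and 4 were above every LL library, and all LP libraries were in or below the PP range. The log2 fold change of LP over PL was -4.03 (SE 0.67, adjusted p = 0.0178, edgeR, n = 5 per cross). The positions were 1.41 for PL and -0.30 for LP, outside both morphs. The 3 highest PL libraries are those with the letter J. Each cross holds only 3 letters, and if libraries that share a letter came from related females, the 5 libraries of a cross are not 5 independent replicates and this p is too small. The call was lost in the edgeR fit of the 10 F1 libraries alone (-4.02, adjusted p = 0.332), with F1 libraries summed by letter (-3.28, adjusted p = 0.9999), without LP replicate 1 (-3.84, adjusted p = 0.119) and without LP replicate 3 (-3.99, adjusted p = 0.114). Without PL replicate 3 the fold change was -3.10 (edgeR, adjusted p = 0.0768).

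It was also the one gene of the 98 whose PL and LP libraries did not overlap. Of all genes tested, 0.529% had every PL library above every LP library and 0.788% the reverse, and 0 of the 98 had every LP library above. This gene took a visible share of all counts on the 98 genes. Together they made up 0.247% ± 0.0294 (SD, n = 7) of counts in PP, 0.648% ± 0.0772 (n = 7) in LL, 0.503% ± 0.109 (n = 5) in PL and 0.408% ± 0.0534 (n = 5) in LP. Without Sbene_G16819 the shares were 0.388% ± 0.0542 in PL and 0.399% ± 0.0532 in LP, so that the crosses differed by less than their spread.

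**Figure D5:**
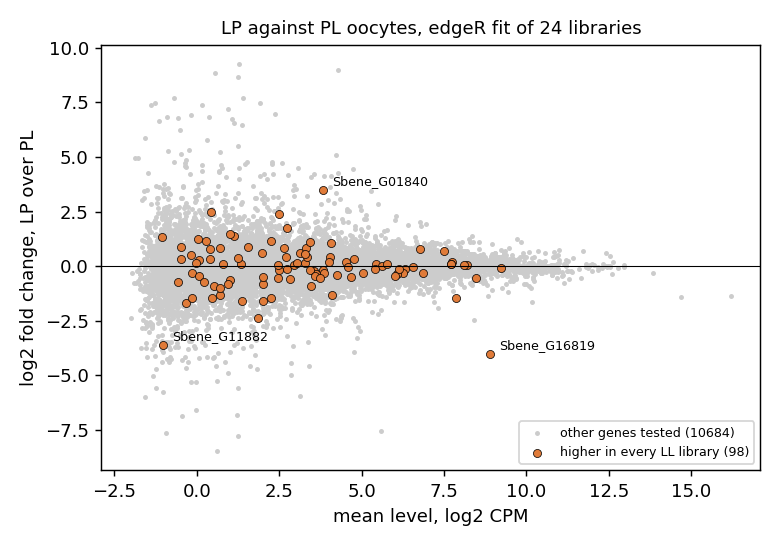
The log2 fold change of LP over PL from the edgeR fit is plotted against the mean log2 CPM, with the 98 genes in orange and all other genes tested in grey (10782 in all). The 98 genes scatter around 0 (median -0.02), and Sbene_G16819 (-4.03) lies far below 0 at a high mean level.

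Several large fold changes without a call rested on 1 library. The solute carrier gene Sbene_G01840 had the largest difference in the other direction (log2 fold change 3.48, SE 0.97, adjusted p = 0.392, edgeR), which was 0.18 without LP replicate 5. DESeq2 called this gene (3.53, adjusted p = 0.0137) and Sbene_G16819 (-3.98, adjusted p = 1.61e-07), where 0.527% of all genes it tested were called. On simulated data for this comparison, 32 of the 115 calls that DESeq2 made were false, beside 1 of 47 in edgeR. DESeq2 recovered 83 of the 200 changed genes there and edgeR 46. The simulated counts were drawn once from edgeR's own estimates of the spread, and no outlying library was put in. They therefore cannot tell whether either DESeq2 call is false. Sbene_G25069, a gene with 0.952 to 38.4 CPM in LL, was at 0, 0.534, 0, 2.54 and 0.961 CPM in PL and 0.794, 1.47, 22.2, 0 and 0 CPM in LP. Its fold change of 2.40 (SE 1.47, adjusted p = 0.726, edgeR) became -0.84 without LP replicate 3. Sbene_G01104 was at 28.6 CPM in PL replicate 2 and at most 2.81 CPM in the other F1 libraries, and its fold change of -2.40 (SE 1.19, adjusted p = 0.679, edgeR) became 0.09 without that library. Sbene_G05782, at 3.09 CPM in LP replicate 3 and at most 0.397 CPM in the other F1 libraries, had a fold change of 2.50 (SE 1.34, adjusted p = 0.701, edgeR). Sbene_G11882 was at or below 0.935 CPM in every F1 library, with a fold change of -3.63 (SE 1.27, adjusted p = 0.515, edgeR) that stayed between -4.57 and -3.27 when each F1 library was left out.

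Among abundant genes the crosses could be compared more closely. Sbene_G00911 had a log2 fold change of -0.09 (SE 0.21), Sbene_G21083 of 0.06 (SE 0.25), Sbene_G10278 of 0.04 (SE 0.30) and Sbene_G11784 of 0.09 (SE 0.25). Sbene_G17407 (-1.46, SE 0.52) and Sbene_G11926 (-0.54, SE 0.24) had larger values that did not pass after adjustment (adjusted p = 0.525 and 0.659, edgeR). In Sbene_G11926, LP libraries were at 165 to 441 CPM and PL libraries at 314 to 410 CPM, so that the crosses overlapped. The values for Sbene_G25841 (0.16, SE 0.70) and Sbene_G22968 (-0.54, SE 0.73) also left the direction of a difference undetermined, and that of Sbene_G25841 turned negative without PL replicate 1, LP replicate 4 or LP replicate 5.

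The difference between the morphs itself varied with the libraries. Over the 98 genes the median log2 difference between LL and PP was 1.61 in the 3 parental libraries labelled as having 2 technical replicates and 2.15 in the 11 others. The labelled libraries were 1 PP and 2 LL libraries. Their PP value thus rests on PP replicate 7 alone, which had the highest median position of the PP libraries, 0.16. With the labelled parents alone as the ends of the scale, the median position of LP was 0.47, with PP replicate 7 again as the only PP library. Reads of all groups were aligned to a genome of the planktotrophic morph, and the effect of this on genes chosen as higher in LL was not tested.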

How the data were processed

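The deposited values are whole-number counts of reads per gene, which the authors made by trimming with Trim Galore, aligning with HISAT2 to the planktotrophic genome and counting with HTSeq, from stranded libraries. Versions were not given in the sources used here. The authors' removal of unwanted variation was not repeated. The genes and the lists were chosen with earlier results of these data known.

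CPM were computed per library. PL and LP were compared with edgeR (version 4.0.16) in R (version 4.3.3), in 1 fit of the 24 libraries with a mean per group, TMM normalization, edgeR's filter on low counts, the quasi-likelihood test and Benjamini-Hochberg adjustment over all genes. The SE given with an edgeR log2 fold change is its absolute value divided by the square root of the F statistic of that test. PP and LL were fitted on their 14 libraries at an adjusted p of 0.05 or less. DESeq2 (version 1.42.0), other scalings, filters and sets of libraries were alternatives. The test was tried on simulated data, where edgeR recovered 46 of 200 genes changed 3-fold between 5 PL and 5 LP libraries, with 10529 genes tested and 1 false call, and DESeq2 recovered 83 with 32 false calls. The simulated counts were drawn once from edgeR's estimates of the spread, with the same mean in all groups apart from the changed genes. Nothing says that replicate clutches were independent beyond being separate females, so p-values measure the spread between these samples.

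Genes named are the 5 annotated ones, the 8 with the highest mean LL level, the 8 with the largest ratio of LL to PP, the called and the 3 lowest and highest in log2 fold change of LP over PL, the 5 lowest and 5 highest in median F1 position, and the 3 nearest the threshold inside. The 10 genes with a gap of at least 5 and those at the extremes of the F1 were added after their values were seen.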

Additional observations from a re-analysis of the deposited data

Results flagged for a closer look

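Single libraries stood far from the rest of their group in 11 of 132 groups of 5 or 7 libraries examined. The criterion was the ratio of the gap to the range. Its cutoffs are meant to pass about 1 of 20 groups by chance. That rate does not hold for genes chosen on their levels or near 0, so the number was not compared with chance. LP replicate 2 had the lowest median position over the 98 genes in LP, 0.43, and PL replicate 3 had the highest share of counts on these genes in PL, 0.696%, which is also the library with 3255 CPM of Sbene_G16819. LP replicate 5 was the highest LP library for Sbene_G01840, at 127 CPM, and PL replicate 5 was the only PL library with counts for Sbene_G12001, at 0.465 CPM.

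In PP, replicate 3 was lowest for Sbene_G00911 (271 CPM) and replicate 2 lowest for Sbene_G11926 (122 CPM), 2 of the most abundant genes. The other PP libraries that stood apart were highest for genes near 0 in that morph. They were replicate 1 for Sbene_G23835 and for Sbene_G07240 (0.0722 CPM each), replicate 7 for Sbene_G25696 (0.268 CPM), and replicate 3 for Sbene_G11882 (0.115 CPM) and Sbene_G05782 (0.436 CPM).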

How the results depend on the processing

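With the 11 parental libraries without the label of 2 technical replicates, 240 genes met the rule, 97 of them among the 98, and leaving out each parental library in turn gave 101 to 143 genes. Apart from the minimum mean level, the rule can only become easier to meet with fewer libraries. These rises were therefore fixed beforehand and do not show an effect of the label. The number of genes that met the rule was 84 with TMM-scaled CPM and 85 with the median of ratios. The median positions of PL and LP were 0.64 and 0.53 with TMM, 0.61 and 0.53 with the median of ratios and 0.50 and 0.47 with the labelled parents alone (1 PP and 2 LL libraries). Leaving out each library gave 0.52 to 0.59 for PL and 0.52 to 0.56 for LP. The share at or above the lowest LL value, 42.9%, stayed within 41.3% and 43.9% when each F1 library was left out. It was 46.5% with TMM and 46.4% with the median of ratios, over the genes that met the rule under each scaling. The share at or below the highest PP value, 38.4%, was 33.2% with TMM and 33.8% with the median of ratios. The number of the 98 genes called between PL and LP, 1 in edgeR, was 2 with DESeq2, 0 in the F1 libraries alone, 0 with these summed by letter, and 0 to 1 when each F1 library was left out. With a replicate block in the fit of F1 libraries it was 0. The samples were not treated as paired by replicate number in the main fit. Deviations of same-numbered PL and LP libraries correlated between -0.0826 and 0.211, over 0.1 in 3 of 5 pairs. That range lay within the range of differently numbered libraries, -0.258 to 0.262. In 1 same-numbered pair each library was the best match of the other. The log2 fold change of LP over PL changed sign for Sbene_G25841 (0.16, and -0.06 to 0.37 when each F1 library was left out), Sbene_G25069 (2.40, -0.84 to 3.61) and Sbene_G01104 (-2.40, -3.21 to 0.09). It was -0.054 for Sbene_G25841 without PL replicate 1, -0.065 without LP replicate 4 and -0.032 without LP replicate 5, -0.84 for Sbene_G25069 without LP replicate 3 and 0.093 for Sbene_G01104 without PL replicate 2. The cause of these sign changes was not tested, and each of these fits also had fewer samples. The PP against LL call, 68 of 87 genes tested, was 91 of 98 with DESeq2 and 48 of 90 in the 11 libraries. It was 53 to 73 genes when each library was left out. Over all genes tested, 158 of 9392, 593 of 17898 and 98 of 9503 were called higher in LL in the first 3 of these fits. The alternatives were chosen after seeing the data. The rule used this contrast, so nothing was read from these counts. With 5 libraries per cross, fold changes of rare transcripts had SEs near 1 on the log2 scale, and a difference of 3-fold in them was often not detectable.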
